A study of Mus musculus with 3 samples.

Results

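The insulin-like growth factor (IGF) axis was followed in leptomeningeal cells of the mouse through 10 genes, 2 ligands (Igf1, Igf2), 2 receptors (Igf1r, Igf2r) and 6 binding proteins (Igfbp2 to Igfbp7). They were chosen by gene symbol from the 46983 gene rows of a table of raw counts, by a rule that names genes and uses no threshold on their values. Leptomeninges, the inner membranes around the brain, were dissected from vehicle-treated mice, dissociated and sorted, and RNA of the pia-enriched fraction was amplified with a low-input template-switching kit before sequencing. All 3 libraries, numbered 1 to 3, belonged to this single group, so the comparisons are between libraries and between genes. Genotype, strain, sex, age, the vehicle, the sort markers and whether the libraries came from separate animals were not given in the sources used here. The p-values below therefore bear only on these libraries, and differences between them may be technical.

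IGF1 and IGF2 are small growth factors that signal through the tyrosine kinase receptor encoded by Igf1r. The receptor encoded by Igf2r carries no kinase: it takes up IGF2 for breakdown and sorts lysosomal enzymes that bear mannose 6-phosphate. Binding proteins hold the ligands in tissue fluid and matrix and release them when proteases cut them. The meninges are a known site of Igf2 and binding protein expression around the brain.

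The depth in gene counts was 21002860 for library 1, 28704952 for library 2 and 25338616 for library 3. Levels are given as counts per 1000000 (CPM) on TMM-scaled library sizes, or, between genes, as CPM per kilobase of merged exons (RPKM). A count of 0 allows up to 3 counts, or 0.152, 0.101 and 0.116 CPM in the 3 libraries, a limit that covers counting error only because the amplified reads carried no molecular identifiers. All 6 fibroblast markers checked lay above 100 CPM. Of 7 markers of leptomeningeal fibroblasts, 5 lay above 10 CPM and 2 above 100 CPM. Markers of other cells were high as well. All 7 mural markers lay above 10 CPM and 5 above 100 CPM. All 5 Schwann cell markers lay above 10 CPM and 3 above 100 CPM, with sums of 2028.1, 1897.7 and 3140.5 CPM in libraries 1, 2 and 3. Library 1 stood apart in base composition, with a median log2 difference from the other libraries of -1.09 in the lowest of 10 classes of GC content and 0.34 in the highest. It also held fewer transcripts of macrophages and microglia, whose 8 markers summed to 12.0, 255 and 720 CPM in libraries 1, 2 and 3. Transcripts of choroid plexus epithelium were fewer too, with 6 markers summed to 80.6, 1670 and 2422 CPM. Enpp2 alone gave 41.7, 1503 and 2237 CPM of that sum, and the median of the 6 was 8.39, 36.7 and 37.6 CPM. No marker of either list was at 0 in any library. In bulk RNA, fewer cells of a type and less RNA per cell cannot be told apart.

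Among the 10 genes, an adjacent pair with very different levels and both ligands are shown by the 250 bases before an annotated start site to set the base composition and motifs of these windows beside the levels. The windows come from RefSeq on GRCm38.p6, 5′ to 3′ on the gene's strand, with capitals at a TATA box (TATAAA), a GC box (GGGCGG) or a CCAAT box (CCAAT), each searched on both strands and with no overlap between motifs. Igf2 has 4 RefSeq start sites in that table and the most downstream is printed, while Igfbp2 has 2 and the upstream one is printed. Both printed sites are the ones with the most motif matches among those of their gene, and counts per gene do not tell which start site was used.
Igfbp5, chr1:72874866-72875115, minus strand: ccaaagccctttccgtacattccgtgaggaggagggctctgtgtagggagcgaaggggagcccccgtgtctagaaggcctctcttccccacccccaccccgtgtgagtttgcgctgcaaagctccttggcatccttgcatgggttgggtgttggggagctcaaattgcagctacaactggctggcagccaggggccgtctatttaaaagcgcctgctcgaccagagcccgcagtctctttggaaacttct
Igfbp2, chr1:72824230-72824479, plus strand: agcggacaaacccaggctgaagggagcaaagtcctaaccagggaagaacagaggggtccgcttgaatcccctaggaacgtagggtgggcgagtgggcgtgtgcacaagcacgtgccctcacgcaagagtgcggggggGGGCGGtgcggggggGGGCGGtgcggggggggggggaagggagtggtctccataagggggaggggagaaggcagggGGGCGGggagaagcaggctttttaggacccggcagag
Igf2, chr7:142657497-142657746, minus strand: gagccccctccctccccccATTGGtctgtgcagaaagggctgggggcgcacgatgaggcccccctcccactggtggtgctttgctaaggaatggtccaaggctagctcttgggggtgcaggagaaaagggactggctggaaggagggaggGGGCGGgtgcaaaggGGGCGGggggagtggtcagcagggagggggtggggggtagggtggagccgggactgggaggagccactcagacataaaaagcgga
Igf1, chr10:87860861-87861110, plus strand: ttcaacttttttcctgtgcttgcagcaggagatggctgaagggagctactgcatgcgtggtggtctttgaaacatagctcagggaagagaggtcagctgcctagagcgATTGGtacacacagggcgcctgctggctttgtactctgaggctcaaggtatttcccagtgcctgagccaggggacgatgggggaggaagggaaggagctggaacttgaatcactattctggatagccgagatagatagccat

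The printed Igfbp2 window held 3 GC boxes and the other Igfbp2 window none of the 3 motifs. The printed Igf2 window held 2 GC boxes and a CCAAT box, while the other Igf2 windows held 1 GC box in all. The Igf1 window held a CCAAT box, and the Igfbp5 window none of the motifs. Of 32851 RefSeq windows of this length, 32.7% held a GC box, 33.8% a CCAAT box and 12.4% a TATA box. GC content was 58.8% in the Igfbp5 window, 67.2% in that of Igfbp2, 66.0% in that of Igf2 and 52.8% in that of Igf1, against a median of 52.4% over all windows. TATAAA stood only in the windows of Igfbp4 and Igfbp6 among the 14 windows of the 10 genes. These matches describe letters in the windows and not factor binding.

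Igfbp5 and Igf2 led the axis, and the kinase receptor was near its bottom. Together the 10 genes took 1.70% ± 0.19 of gene counts (SD, n = 3). Per kilobase, the order was Igfbp5 (1734 ± 242 RPKM), Igf2 (773 ± 246), Igfbp6 (626 ± 142), Igfbp4 (148 ± 33.6), Igf1 (75.8 ± 26.1), Igfbp7 (53.7 ± 4.34), Igfbp2 (9.16 ± 1.78), Igf2r (8.01 ± 1.29), Igfbp3 (0.562 ± 0.114) and Igf1r (0.431 ± 0.141 RPKM; SD, n = 3 for each). Neighbours in this order whose ranges over the libraries overlapped were Igf2 and Igfbp6, Igf1 and Igfbp7, Igfbp2 and Igf2r, and Igfbp3 and Igf1r. Within libraries, Igfbp2 was above Igf2r in 3 of 3, by a log2 ratio of 0.19 ± 0.16 (SD, n = 3), and the other overlapping pairs kept their order in 2 of 3. The ranges of the remaining neighbours did not overlap, and their levels differed by 2.02-fold (Igfbp4 over Igf1) to 14.3-fold (Igf2r over Igfbp3), as geometric means. Of 14375 genes tested that had an annotated length, Igfbp5 ranked 15, Igf2 45 and Igfbp6 58 per kilobase, while Igfbp3 ranked 12694 and Igf1r 13209.

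**Figure D1:**
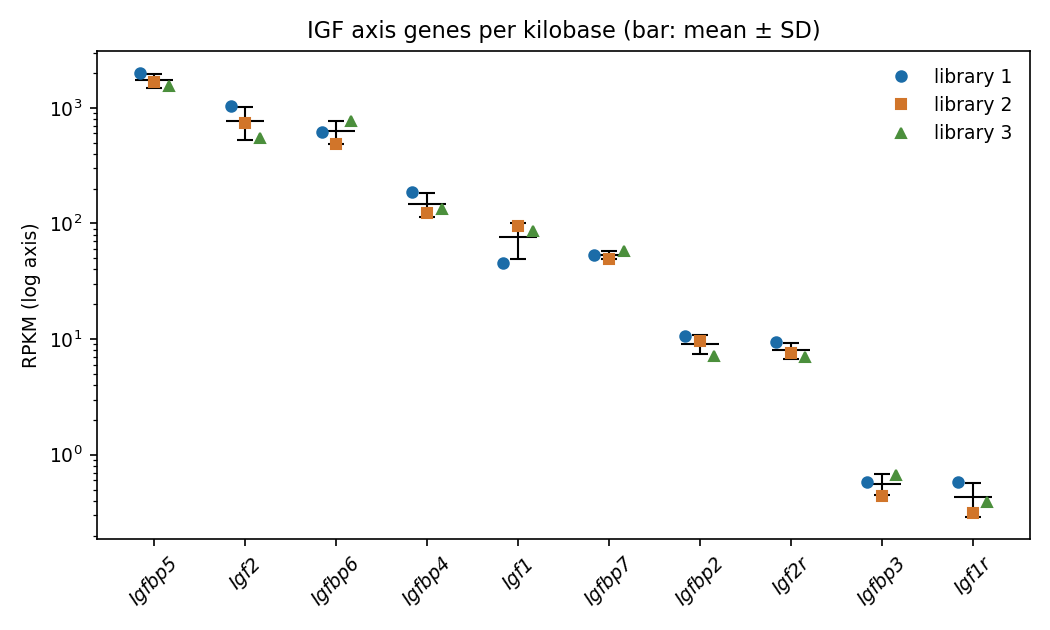
Level per kilobase of merged exons (RPKM, log axis) of the 10 IGF axis genes, ordered by mean, with a point for each of 3 libraries and a bar for the mean ± SD. The levels run from 1734 RPKM for Igfbp5 to 0.431 RPKM for Igf1r, and Igf1 is the gene whose library 1 value lies farthest below the other libraries.

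Of the ligands, Igf2, the fetal-type growth factor that is expressed from the paternal allele in most tissues, was the more abundant. Counts per gene do not tell parental alleles apart, so whether Igf2 came from 1 allele in these cells was not tested. Igf2 (ENSMUSG00000048583.16, chromosome 7, 142650766 to 142666816, GRCm38) was at 5924, 4202 and 3137 CPM in libraries 1, 2 and 3. Its values differed 1.89-fold from the highest, library 1, to the lowest, library 3. Igf1 (ENSMUSG00000020053.18, chromosome 10, 87858265 to 87937042), the ligand that growth hormone induces in liver and that many stromal cells and macrophages make locally, was at 455, 936 and 860 CPM. Library 1 was thus lowest for Igf1 and highest for Igf2.

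Per kilobase, Igf2 exceeded Igf1 by 22.6-fold in library 1, 7.77-fold in library 2 and 6.31-fold in library 3. The mean log2 ratio was 3.37 ± 0.99 (SD, n = 3), positive in 3 of 3 libraries, and an exact permutation test that flips signs (two-sided) gave p = 0.25, the smallest p that 3 libraries allow. The ligands also differ in base composition, and its part in this ratio was not tested. The longest Igf1 transcript has a GC content of 38.0%, in the lowest class, where the median gene was also lower in library 1 by a log2 difference of -1.09, and Igf1 itself was at -0.98. The longest Igf2 transcript has 55.8%, in a class with a median of 0.38, and Igf2 was at 0.69. After removal of the trends with GC content and exon length, Igf1 was at 929, 566 and 693 CPM, so library 1 turned from the lowest to the highest. The ratio of Igf2 to Igf1 per kilobase was then 9.31, 14.4 and 8.33-fold, and its mean log2 value kept at 3.37 because the correction is centred on each gene's mean.

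**Figure D2:**
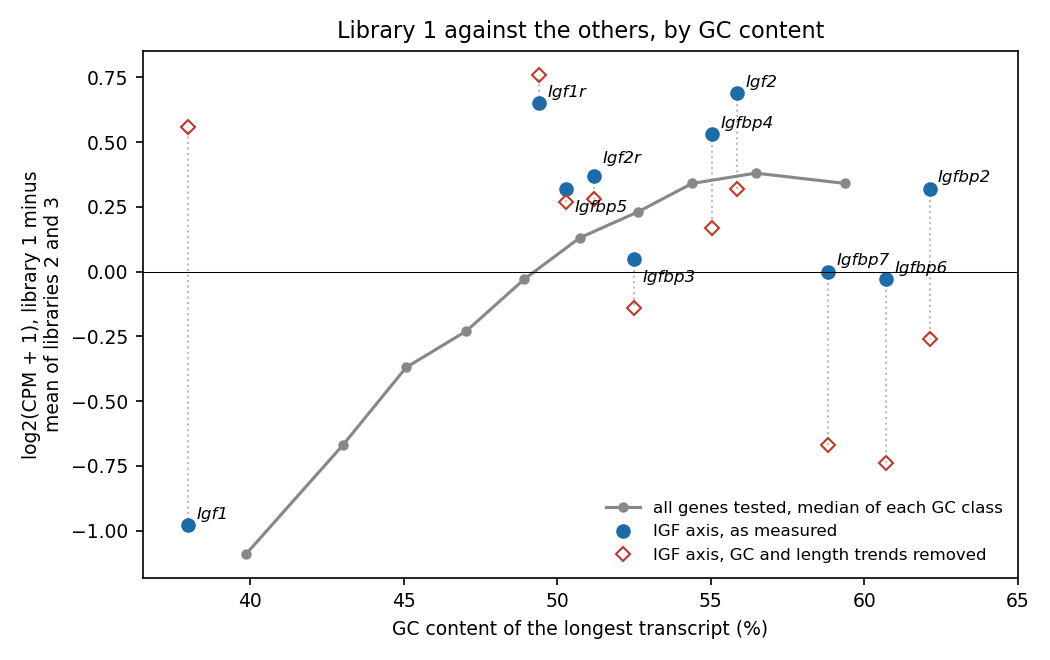
Difference in log2(CPM + 1) between library 1 and the mean of libraries 2 and 3, against the GC content of the longest transcript, for the 10 IGF axis genes as measured (filled) and with GC and length trends removed (open), and for 10 classes of all genes tested (grey line, medians). Igf1, at 38.0% GC, moves from -0.98 to 0.56, whereas Igf2, at 55.8%, moves from 0.69 to 0.32.

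Markers of other cells that can make these ligands also differed between libraries. The summed macrophage and microglia markers were at 12.0 CPM in library 1, where Igf1 was at 455 CPM. Between libraries 2 and 3 those markers went from 255 to 720 CPM, and Igf1 from 936 to 860 CPM. The summed choroid plexus markers, mostly Enpp2, were lowest in library 1, at 80.6 CPM, the library in which Igf2 was highest. The part of these cells in the levels of Igf1 and Igf2 was not tested, and the order of the libraries in Igf1 was different once the GC content and length trends were removed, as given above.

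Of the receptors, Igf2r was far above Igf1r. Igf2r (ENSMUSG00000023830.13, chromosome 17, 12682406 to 12769664) was at 88.1, 70.3 and 65.2 CPM. Igf1r (ENSMUSG00000005533.9, chromosome 7, 67952827 to 68233668) was at 9.85, 5.24 and 6.59 CPM, from 195, 156 and 171 counts. Both were highest in library 1, and the ranges of the receptors did not meet. Per kilobase Igf1r stood to Igf2r at a log2 ratio of -4.26 ± 0.30 (SD, n = 3), with Igf2r higher in 3 of 3 libraries and p = 0.25 in the same exact permutation test. Insr, the insulin receptor, whose product can pair with that of Igf1r, was at 20.4, 32.4 and 29.2 CPM, and per kilobase 2.53, 7.56 and 5.41-fold above Igf1r. The annotated exons of Igf1r merge to 16791 bases, the longest of the 10 genes, against 11409 bases for its longest transcript, so that its level per kilobase is a low estimate where shorter isoforms are in use.

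Ligand transcripts outnumbered receptor transcripts per kilobase by 108-fold, 105-fold and 85.8-fold in libraries 1, 2 and 3, with Igf2r making up 94.2%, 96.0% and 94.7% of the receptor level. Igf2 alone was 109, 97.2 and 78.2-fold above Igf2r per kilobase. These are ratios of RNA and say nothing of the proteins.

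Binding proteins made up most of the axis, led by Igfbp5. They took 67.8% of the counts of the 10 genes in library 1 (95% Wilson interval 67.6 to 67.9), 68.3% in library 2 (68.1 to 68.4) and 72.5% in library 3 (72.3 to 72.6), or 69.5% ± 2.59 (SD, n = 3). Those intervals cover counting error only, and the libraries differed by more than that. Per kilobase the share was 75.2% ± 3.79, and there were 2.65, 2.83 and 3.94 binding protein transcripts per ligand transcript in the 3 libraries.

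Igfbp5 (ENSMUSG00000026185.8, chromosome 1, 72857932 to 72874884) encodes a binding protein that attaches to extracellular matrix. It was at 12023, 10043 and 9184 CPM, from 237972, 298863 and 238181 counts, and differed by 1.31-fold between its extremes. Per kilobase it made up 69.7%, 71.3% and 61.2% of the binding protein level, and it stood above Igf2 by 1.93, 2.28 and 2.79-fold.

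Igfbp6 and Igfbp4 formed the next tier. Igfbp6 (ENSMUSG00000023046.6, chromosome 15, 102144362 to 102149511), whose product prefers IGF2 over IGF1, was at 686, 544 and 858 CPM. Igfbp4 (ENSMUSG00000017493.12, chromosome 11, 99041244 to 99054392), whose product is the classic substrate of the protease PAPP-A, was at 823, 549 and 589 CPM. Library 3 was highest for Igfbp6 and library 1 for Igfbp4, and library 2 was lowest for both. Their CPM ranges overlapped, but per kilobase Igfbp6 was 3.31, 3.93 and 5.79-fold above Igfbp4, because its merged exons span 1112 bases against 4416.

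Igfbp7 (ENSMUSG00000036256.13, chromosome 5, 77349240 to 77408041), a relative with low affinity for IGFs that is abundant in vessel walls, was at 65.1, 59.6 and 70.1 CPM. As measured, it was the steadiest of the 10 genes, with 1.18-fold between its extremes. With the trends in GC content and length removed it was at 47.2, 77.8 and 73.3 CPM, lowest in library 1, and Igfbp6 at 486, 726 and 894 CPM likewise. Igfbp7 was then no longer the steadiest, as Igfbp4 was at 695, 613 and 623 CPM. Endothelial markers (6 genes) summed to 90.2, 64.5 and 76.2 CPM, and mural markers (7 genes) to 2693, 2399 and 4608 CPM. Both sums were lowest in library 2, as was Igfbp7 as measured. The median endothelial marker was also lowest there (13.1, 7.01 and 13.1 CPM). The median mural marker was instead lowest in library 1 (201, 273 and 372 CPM). The part of these cells in the level of Igfbp7 was not tested.

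Igfbp2 and Igfbp3 were low. Igfbp2 (ENSMUSG00000039323.18, chromosome 1, 72824503 to 72852474), an abundant binding protein of cerebrospinal fluid, was at 19.7, 17.8 and 13.3 CPM. Igfbp3 (ENSMUSG00000020427.11, chromosome 11, 7206086 to 7213923), the main carrier of IGFs in blood, was at 1.82, 1.38 and 2.08 CPM, from 36, 41 and 54 counts. Its values differed 1.51-fold between the extremes, libraries 3 and 2.

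The binding protein genes stand partly in tail-to-tail pairs, and the members of a pair had unlike levels. Igfbp2 and Igfbp5, whose promoters are printed above, face each other with 5457 bases between them on chromosome 1. Igfbp5 was 188, 173 and 213-fold above Igfbp2 per kilobase in libraries 1, 2 and 3, a mean log2 ratio of 7.58 ± 0.15 (SD, n = 3). Igfbp3 lies 3539 bases from Igfbp1 on chromosome 11, and Igfbp1 had 1, 0 and 0 counts, below the limit that a count of 0 allows.

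The 10 genes were then read in a test of variation between libraries that ran over 14409 genes. It asks whether a gene varied by more than genes of like abundance in the same libraries. None of the 10 was called variable (edgeR goodness of fit, Benjamini-Hochberg adjusted p = 0.9997 for each), and 0 of 10 had an unadjusted p under 0.05, against 1015 of 14409 genes tested. Over all genes tested, 63 (0.437%) were called, so a count of 0 among 10 genes is near the background. The smallest unadjusted value was that of Igf1, at 0.221. All 10 passed the filter on low counts. The range over libraries in log2(CPM + 1) had a median of 0.56 over the 10 genes, against 0.67 over all genes tested, and went from 0.23 for Igfbp7 to 1.04 for Igf1. Library 1 was highest for 6 of the 10 genes, library 3 for 3 and library 2 for Igf1 alone.

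By CPM level and pattern together, measured as the Euclidean distance in log2(CPM + 1) over 3 libraries, the genes nearest to Igf2 were Serpinf1 (distance 0.236), Ctsd (0.405) and Dcn (0.431). Serpinf1, which encodes the secreted serpin PEDF, was at 6138, 3582 and 3111 CPM and thus, like Igf2, highest in library 1 and lowest in library 3. Nearest to Igfbp5 were the matrix genes Sparc (0.310) and Col1a2 (0.421), followed by Gpx3 (0.891). Nearest to Igf2r were Ampd3 (0.0531), Pcyt2 (0.0682) and Ccnt1 (0.0766). With 3 libraries such likeness is a description of levels.

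The imprinted genes around the axis were measurable, but their parental alleles were not told apart. H19, the maternally expressed RNA gene 72622 bases from Igf2, was at 1126, 900 and 1084 CPM, and Igf2 stood above it per kilobase by 2.26, 2.01 and 1.24-fold. Airn, the paternally expressed RNA that runs antisense to Igf2r, was at 21.3, 26.1 and 26.3 CPM, which per kilobase put Igf2r at 1.60, 1.04 and 0.957 times Airn. Airn shares no annotated exon base with Igf2r, but the strand setting of the counting was not given in the sources used here, so reads of unspliced Igf2r and of Airn cannot be told apart. Igf2os, antisense to Igf2 with 98 shared exon bases, was at 1.45 ± 0.43 CPM. Gm49394, which in GENCODE M21 shares 3596 exon bases with Igf2 on the same strand, had no row in the gene counts. Polr2b, on the opposite strand, shares 85 exon bases with Igfbp7.

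Beyond the 10 genes, 58 genes of the pathway were read from lists of known function. Of these, 50 passed the filter, 40 had a mean above 10 CPM and 9 above 100 CPM. Of the 50, 0 were called variable (edgeR goodness of fit). Over all genes tested, 12.7% lay above 100 CPM and 0.437% were called, so a count of 0 among 50 is near the background. An unadjusted p under 0.05 was found for 2 of the 50, against 1015 of 14409 genes tested. Among the 2 was Ghr, the growth hormone receptor, at 0.0203 (edgeR goodness of fit, adjusted p = 0.489). Ghr was at 15.6, 59.5 and 43.7 CPM in libraries 1, 2 and 3, lowest in library 1.

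Of 7 proteases that cut binding proteins and their inhibitors, 5 lay above 10 CPM. Htra3 and Htra1, secreted serine proteases, were at 253 ± 51.9 and 140 ± 34.7 CPM, and Pappa, which encodes PAPP-A, at 65.2 ± 9.86 CPM (SD, n = 3). Its relative Pappa2 was at 28.6, 25.7 and 69.1 CPM, highest in library 3, without passing the test (edgeR adjusted p = 0.732). The PAPP-A inhibitors Stc2 and Stc1 were lower, at 4.72 ± 1.51 and 1.67 ± 0.44 CPM. Of the cell-surface partners of binding proteins, Lrp1, a large endocytic receptor, was at 2195 ± 434 CPM, Tmem219 at 89.6, 47.5 and 52.7 CPM in libraries 1, 2 and 3, and Cd93, an endothelial receptor of Igfbp7, at 7.79 ± 4.37 CPM.

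Of 3 other carriers, only Igfals, which in blood stabilises the complex of IGF and Igfbp3, passed the filter, at 8.87 ± 3.03 CPM, while Igfbp1 and Igfbpl1 had at most 1 count in any library. Ins2 had 0, 39 and 15 counts and Insrr 1, 19 and 5, and Ins1 had none. Of the proteins that bind Igf2 messenger RNA, Igf2bp2 was at 11.6 ± 3.35 CPM, whereas Igf2bp3 had 11, 44 and 3 counts and Igf2bp1 0, 0 and 2.

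Among 10 adaptors of the receptors, 7 lay above 10 CPM. Shc1 was at 588 ± 84.1 CPM, Grb10, an imprinted inhibitor of IGF signalling, at 267 ± 31.2 CPM and Irs1 at 53.5 ± 16.7 CPM, while Irs4 had no count. Of 18 genes of the PI3K, AKT, mTOR and FOXO branch, 15 lay above 10 CPM, led by Akt2 (218 ± 44.4 CPM), Tsc2 (91.2 ± 16.6) and Pik3r1 (85.6 ± 22.3). All 5 genes of growth hormone input were above 10 CPM, with Stat5b at 82.0 ± 17.2 and Stat5a at 43.6 ± 3.98 CPM. In mannose 6-phosphate sorting, the route that Igf2r serves, M6pr, the smaller of the receptors, was at 316 ± 33.7 CPM, Gnptg at 203 ± 86.0 CPM and Gnptab at 12.0 ± 5.25 CPM.

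**Figure D3:**
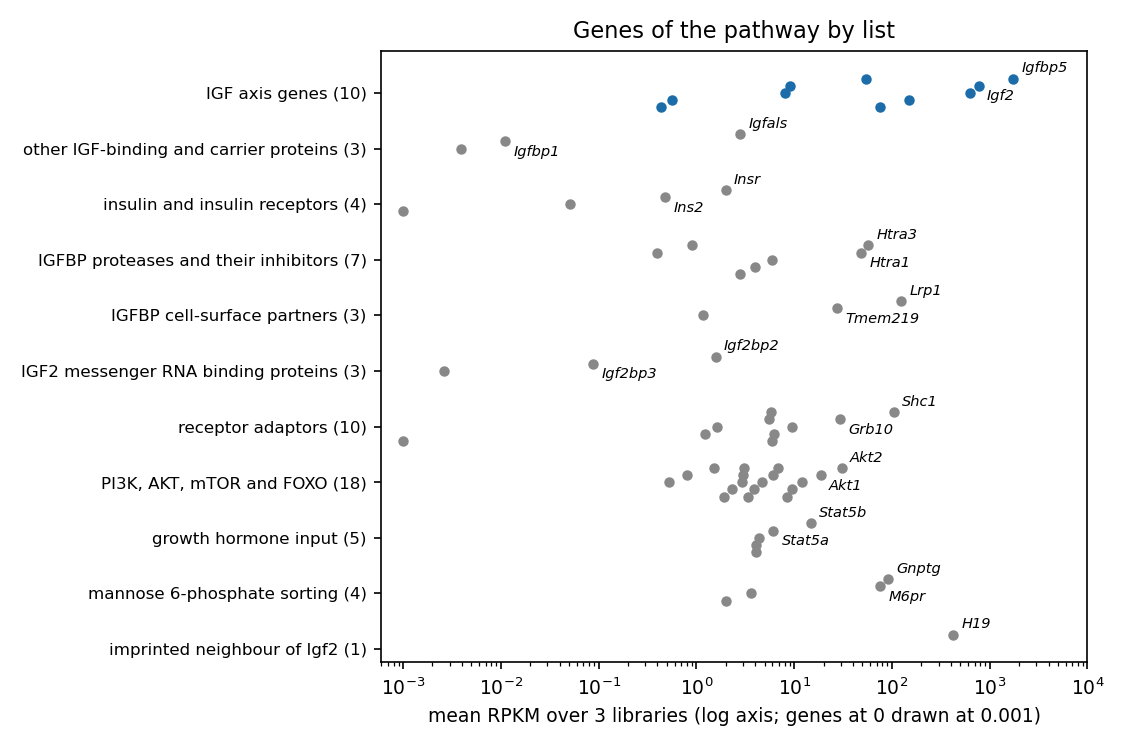
Mean level per kilobase (RPKM over 3 libraries, log axis; genes at 0 drawn at the left edge) of the 10 IGF axis genes (blue) and of 58 other genes of the pathway (grey), by list, with the leading genes of each list named and the number of genes in brackets. H19 (421 RPKM) and Lrp1 (124 RPKM) are the highest of the 58 genes, below Igfbp5 at 1734 RPKM.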

How the data were processed

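RNA of 3 libraries of 1 group was analysed from counts per gene, whole numbers as deposited by the authors with no normalization. Per the submitters' processing notes, HTSeq 0.5.3, DESeq2 1.22.1 and the mm10 build (GRCm38) were used; the aligner, annotation release and strand setting are not given in the sources used here. The 5 rows that count reads given to no gene (45.6%, 39.1% and 39.6% of the totals of libraries 1, 2 and 3) were left out. Of 46983 gene identifiers, 46488 (98.9%) matched GENCODE M21, the source of coordinates, lengths and GC content. With edgeR 4.0.16 (R 4.3.3), TMM factors scaled the libraries and filterByExpr (minimum count 10) kept 14409 genes. Variation was tested by goodness of fit at the trended dispersion, with Benjamini-Hochberg adjustment at 0.05, checked on simulated data. No contrast exists with 1 group. GC content and length trends were fitted by lowess to each library's deviation from the gene mean. Other size factors, dispersions, filters and lengths, and leaving out each library, were tried. The text names the 10 genes, the 3 most abundant of each other list of the pathway and any gene of those lists called variable. It also names the 3 nearest to the leading ligand, receptor and binding protein. Enpp2, Pappa2, Stc1, Stc2, Ins1, Irs4, Airn, Igf2os and Polr2b were added after their values were seen, and Gm49394 for its overlap with Igf2. The genes and lists were chosen with earlier results of these data known.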

Additional observations from a re-analysis of the deposited data

How the results depend on the processing

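None of the 10 IGF axis genes was called variable under the 9 alternatives, which included leaving out each library. The count of variable genes over the table (63) lay between 62 and 85 with DESeq2 size factors, unscaled totals or the common dispersion. It was 134 with no filter on low counts, which tests more genes, 111 with GC content and length trends removed, where the cause was not tested, and 181 with a filter on a mean of 10 counts, an alternative chosen after seeing the data that admits genes nearly missing from 1 library. Leaving out one replicate at a time, and so fitting 2 libraries, gave 12 to 28 genes. The share of binding proteins (69.5%) was 75.2% per kilobase, since Igfbp6 is short, and lay between 68.0% and 70.4% with one replicate left out at a time. The log2 ratio of Igf2 to Igf1 per kilobase (3.37) was 2.58 without division by length and 2.81 to 3.73 with one replicate left out at a time, the lowest without library 1; that of Igf1r to Igf2r (-4.26) was -3.40 without division by length and -4.38 to -4.08. The exact test cannot reach 0.05 with 3 libraries, and its p bears on no question of stability. The order of the 10 genes per kilobase was the same with the longest transcript as length, with plain totals and without each library in turn. With DESeq2 size factors or plain totals, the levels of the 10 genes stayed within 1 SD of the reported means; leaving out 1 of 3 libraries cannot move a mean by that much, so those levels bear on nothing. No paired analysis was possible because only 1 group was labelled. Counts were lowest for Igfbp3 and Igf1r, with at most 54 and 195 in a library.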
